A study of Mus musculus with 25 samples.

Results

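The change between 3 and 7 days after spinal cord injury (SCI) was measured in cortical neurons that had lost the transcriptional repressor REST. The comparison was defined by the labels alone: REST cKO libraries recovered 7 days after SCI (n = 3) against REST cKO libraries recovered 3 days after SCI (n = 4), together 7 of the 25 libraries of the series, over the 9931 of 9955 table rows that carry a mouse gene symbol. Sham libraries entered no comparison. They and all other libraries of the series served in the fit, which takes the spread and the coefficients of its covariates from all 25. All mice were C57BL/6 and carried 2 floxed *Rest* alleles (REST flx/flx) with a STOP flx/flx TdTomato reporter. REST cKO mice received AAV-Syn-Cre in the sensorimotor cortex, a virus in which the human synapsin promoter drives Cre recombinase in neurons, so that *Rest* was deleted and the tdTomato reporter switched on in infected neurons only. WT libraries, whose values are given only beside those of REST cKO (n = 3 at 7 days, n = 3 at 3 days), came from mice of the same alleles given AAV-Syn-GFP, which kept *Rest*. Every group in this report had a complete crush of the thoracic spinal cord, about 1000 neurons were sorted by fluorescence for each library, and the mRNA was profiled by sequencing of transcript 3′ ends. The study counts mice as replicates, but the labels do not tie each library to a mouse of its own, so a p-value here measures the spread between libraries.

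REST binds an element called RE1 near genes of neuronal function and recruits corepressors that remove histone acetylation, which holds those genes down outside the nervous system. In adult neurons it is low and rises after insults. Corticospinal neurons of the adult cortex mount a short injury response after axotomy and then fail to regrow, whereas peripheral neurons sustain a program of regeneration-associated genes that includes cytoskeletal, growth cone and transcription factor genes.

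*Rest* itself, the deleted gene, separated the genotypes. Its log2 normalized count was -1.21, -0.33 and -0.97 in the REST cKO libraries at 7 days and -0.04, -0.31, -0.24 and -1.61 at 3 days, against 0.26 to 2.88 in the 6 WT libraries of the same days, so that no library of one genotype overlapped with the other. Within REST cKO it did not differ detectably between the days (-0.25 ± 0.85, log2 difference ± SE). The values are logarithms of scaled counts, libraries had medians of 0.76 to 1.16, and sequencing depth cannot be read from such values, so no counting interval accompanies them. Values below about -2 lie at the bottom of the scale, and they made up 10.7%, 8.84% and 2.77% of the values in the 7-day libraries against 9.24%, 4.16%, 6.45% and 4.48% in the 3-day libraries. These shares overlapped (mean 7.43% ± 4.15 SD, n = 3, against 6.08% ± 2.34 SD, n = 4, two-sided exact permutation test p = 0.629, where the 35 possible splits allow no p below 0.0571). Leaving out 7-day library 2 turned that difference from 1.35 to -0.28 percentage points. The sexes were not balanced: all 3 libraries at 7 days were labelled male, and 3 of the 4 at 3 days female. *Xist*, the RNA that silences the second X chromosome, was 1.66 to 2.14 in the 3 female libraries and -0.02 to 0.71 in the 4 male ones, but the 4 Y-linked genes in the table did not separate them. Each of 3 batches held both days.

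The neuronal label was checked against markers. Of 10 excitatory neuron markers 9 were in the table, and their summed linear level was 23.6 to 28.0 at 7 days and 18.8 to 28.4 at 3 days. Of 13 markers of deep-layer projection neurons 7 were in the table, *Fezf2* and *Crym* not among them, and their sum was 16.4 to 28.9 at 7 days against 8.15 to 15.2 at 3 days. The 7 measured markers of inhibitory neurons, without *Pvalb*, *Sst* and *Lhx6*, summed to 10.01 to 20.3 against 5.59 to 6.79. Other cell types were present as well: all 18 microglial markers were measured, with a sum of 143 to 153 at 7 days and 147 to 171 at 3 days, all 19 endothelial and pericyte markers summed to 70.1 to 124 and 85.0 to 127, 11 of 14 astrocyte markers without *Gfap* and *Aqp4* to 44.1 to 64.4 and 30.03 to 56.4, and 14 of 17 oligodendrocyte markers to 17.7 to 28.8 and 17.8 to 35.7. No measured marker was below -2 in all 7 libraries. The sums of the deep-layer and inhibitory lists did not overlap between the days, whereas their mean log2 levels did (0.29 to 1.34 against 0.04 to 0.80 and -0.86 to 0.22 against -1.24 to -0.39). The part of these markers in the values of neuronal genes given below was not tested. More neurons in a sort and more RNA per neuron cannot be told apart in these libraries.

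Between 3 and 7 days no gene passed the threshold. With limma fitted to all 25 libraries and the 2 sequencing components from the labels as covariates, 0 of 9931 genes (0%) had an adjusted p under 0.1 (Benjamini-Hochberg), and the smallest adjusted p was 0.802. At an unadjusted p under 0.05, 210 genes (2.11%) were higher and 224 (2.26%) lower at 7 days, together 434 genes (4.37%). All 3 libraries at 7 days lay above all 4 at 3 days for 401 genes (4.04%) and below them for 322 (3.24%). The median difference over all genes was 0.04, its 5th to 95th percentiles were -1.45 and 1.58, and the median SE of a gene was 0.91, so that a difference of 1 on the log2 scale was close to the error of a typical gene. The differences in batch 1, 2 and 3 barely followed each other across genes (Pearson's r of -0.06, 0.07 and 0.03 for the 3 pairs, over 9931 genes, which are not independent replicates), and 2562 genes (25.8%) had the same sign in all of them. With sex as a term of the fit 234 genes were higher and 239 lower at an unadjusted p under 0.05, and with batch as a term 186 and 179, with 0 past the adjusted threshold in either. Without 3-day library 9, 2 genes had adjusted p under 0.1 by limma. Both encode immunoglobulin chains of B cells, were chosen here after their values were seen, and were lower at 7 days. *Ighg2c* had values of 3.44, 3.27 and 3.31 at 7 days and 2.77, 4.12, 4.47 and 4.10 at 3 days, the first of the 3-day values being library 9 (adjusted p 0.0255 without it), and *Igkc* had 3.83, 3.96 and 3.91 against 3.75, 4.43, 4.61 and 4.36 (adjusted p 0.0377 without it). The genes below are therefore given as values and not as calls.

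**Figure D1:**
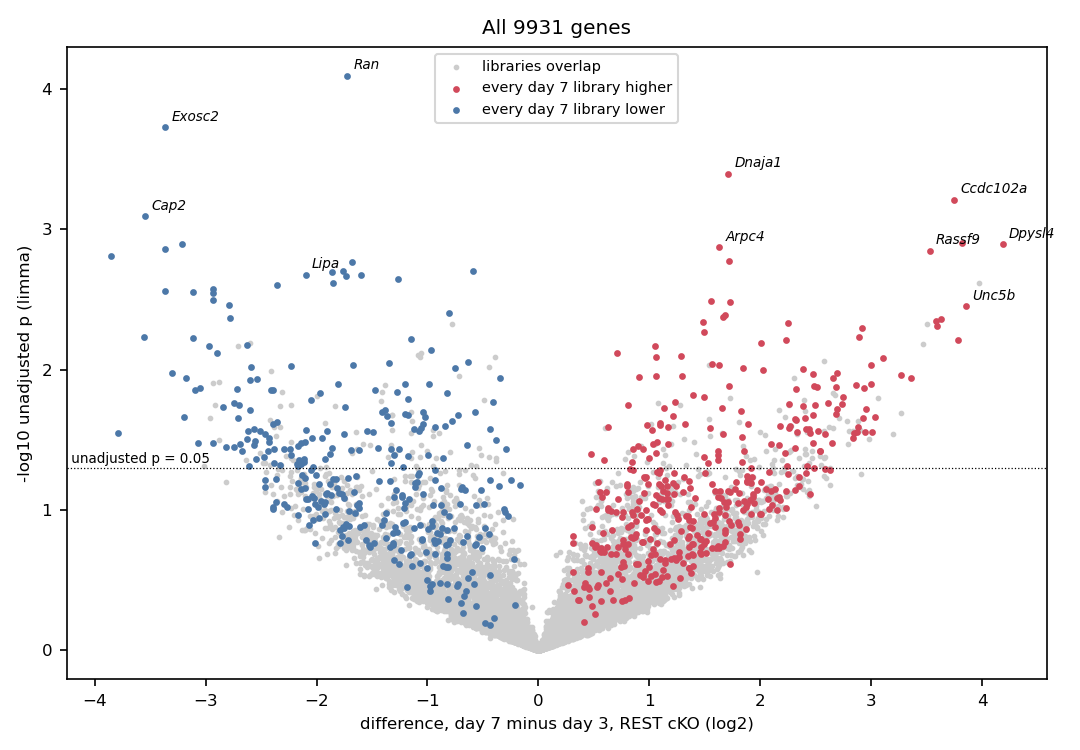
Each point is 1 of 9931 genes, with the REST cKO difference between 7 and 3 days (log2) on the x axis and −log10 of the unadjusted limma p on the y axis. Red and blue points are the 401 and 322 genes whose libraries did not overlap, grey points overlapped, and some leading genes are named. None of the genes passed an adjusted p of 0.1.

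The leading genes were those without overlap, with the same sign in every batch and a difference of at least 1 on the log2 scale, ordered by unadjusted p. Of 286 such genes that were higher at 7 days, the first 10 differed by 1.55 to 4.18. *Cacna1a* (chromosome 8, 84388440 to 84640246 of GRCm38) encodes the pore of the P/Q-type calcium channel that triggers transmitter release. It was at 0.94, 1.24 and 1.01 in the libraries at 7 days and at -3.11, -2.45, -2.35 and -1.94 at 3 days, a difference of 3.82 ± 1.05 (limma, adjusted p = 1.00), and all 3-day libraries lay near the bottom of the scale.

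3 leading genes act in axon growth and shape. *Dpysl4*, of the collapsin response mediator family, was at 0.61, 1.43 and 1.92 at 7 days and -3.28, -2.74, -2.38 and -1.65 at 3 days (4.18 ± 1.16), the largest difference among the 10. *Unc5b*, a receptor for netrins, had 1.28, 1.34 and -0.30 against -3.09, -2.99, -2.83 and -2.30 (3.85 ± 1.20). *Ank2*, ankyrin-B, which ties membrane proteins to the axonal cytoskeleton, had 2.52, 2.39 and 1.87 against 1.11, 1.07, 0.83 and 0.56 (1.55 ± 0.48). For *Dpysl4* and *Unc5b* every 3-day library was below -1.6, whereas *Ank2* was well expressed on both days.

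The remaining leading genes with a higher value at 7 days had various roles. *Dnaja1*, a co-chaperone of the heat shock protein family (chromosome 4, 40722150 to 40737149), had the smallest p of them, with 2.66, 3.51 and 2.48 at 7 days and 1.11, 1.49, 1.36 and 1.17 at 3 days. Its difference of 1.71 ± 0.42 corresponds to 3.27-fold. *Arpc4*, a subunit of the actin-branching Arp complex, had 2.92, 3.10 and 2.37 against 1.60, 0.85, 1.44 and 0.97 (1.63 ± 0.45), and *Oxr1*, which protects neurons from oxidative damage, had 2.60, 3.58 and 2.14 against 0.75, 1.22, 1.36 and 1.17 (1.73 ± 0.53). *Ccdc102a* differed by 3.75 ± 0.96 and *Rassf9*, of the Ras association domain family, by 3.53 ± 0.99, both from low 3-day values. In WT, 3 of these 10 genes had a positive difference.

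Of 231 genes that met the same criteria in the other direction, the first 10 had differences of -3.54 to -1.60. *Ran* (chromosome 5, 129020069 to 129024323), the GTPase that drives transport through nuclear pores, had the smallest p of all genes (limma, adjusted p = 0.802). It was at 0.62, 1.44 and 1.41 at 7 days and 2.20, 2.73, 3.23 and 3.17 at 3 days, a difference of -1.72 ± 0.37, or 3.30-fold lower. *Exosc2*, a subunit of the RNA exosome, had -2.97, -1.23 and -1.82 against 1.09, 0.52, 1.84 and 1.81 (-3.36 ± 0.77). *Wiz*, a zinc finger partner of the histone methyltransferases G9a and GLP, had -2.28, -2.35 and -0.51 against 0.95, 0.64, 0.86 and 2.99 (-3.21 ± 0.89), with 3-day library 27 far above the rest.

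The other leading genes with lower values spanned metabolism, membranes and actin. *Cap2*, which recycles actin monomers, had -3.04, -1.98 and -0.66 against 0.09, 3.04, 0.75 and 2.83 (-3.54 ± 0.93). *Aurkaip1*, a mitochondrial protein that also binds Aurora kinase A, had -2.74, -2.80 and 0.63 against 2.24, 0.97, 0.73 and 2.35 (-3.37 ± 0.94), and its 7-day library 26 came within 0.1 of the lowest 3-day library. *Lipa*, the acid lipase of lysosomes, had -0.42, -0.30 and 0.01 against 0.62, 1.54, 2.50 and 2.60 (-2.10 ± 0.61). *Egln1*, the prolyl hydroxylase that marks hypoxia-inducible factors for degradation, differed by -1.60 ± 0.47, *Ano6*, a phospholipid scramblase, by -1.86 ± 0.54, *Rnpep*, an aminopeptidase, by -1.68 ± 0.48, and *Ola1*, an ATPase, by -1.76 ± 0.51. All 20 leading genes are protein-coding, and adjusted p was 0.802 to 1.00 among them.

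**Figure D2:**
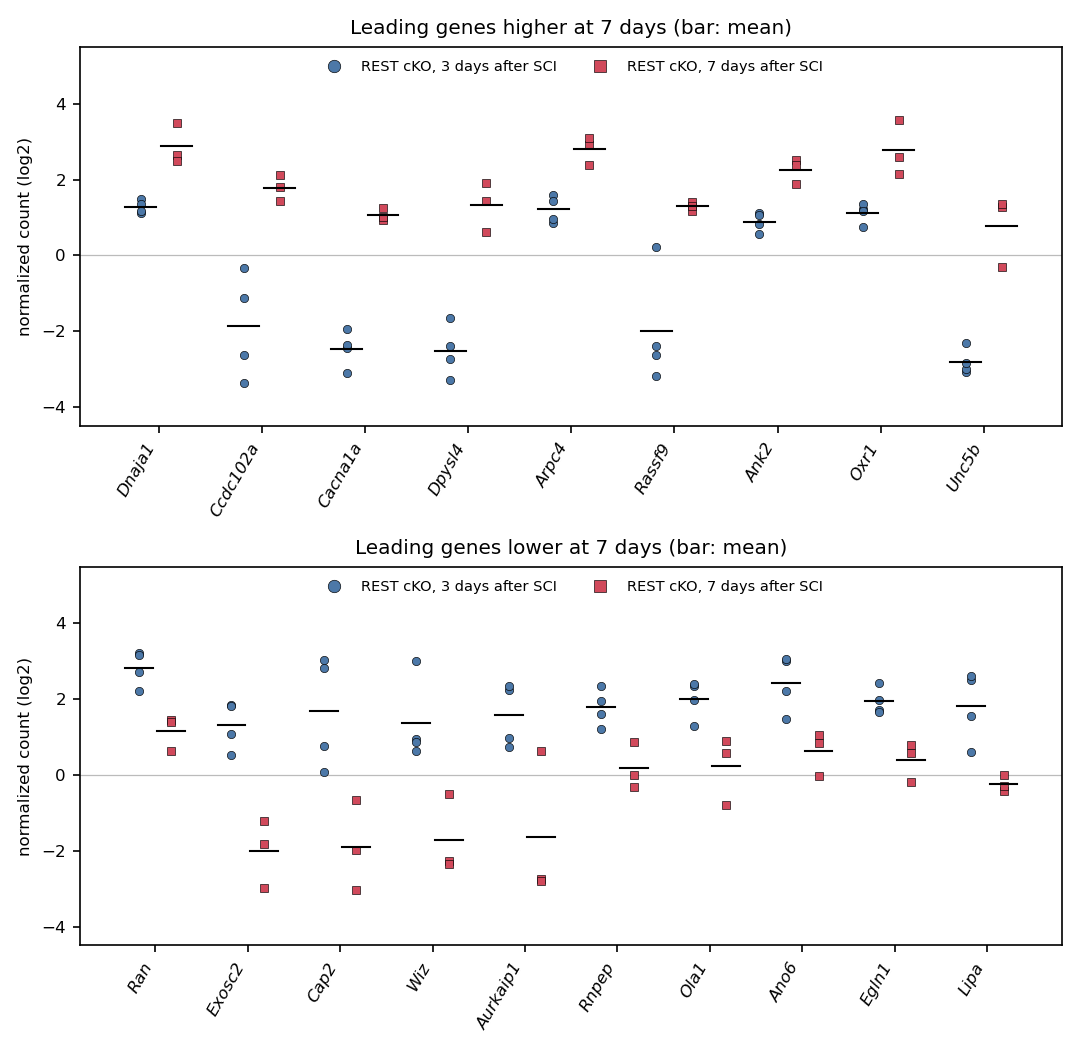
Log2 normalized counts of the leading genes described, 9 with higher (top) and 10 with lower (bottom) values at 7 days, with 1 point per REST cKO library (circles, 3 days, n = 4, squares, 7 days, n = 3) and bars at the group means. By the selection no gene's groups overlap. *Dpysl4*, with the largest rise, starts from 3-day values below -1.6, and *Cap2*, with the largest fall, ends at -3.04 to -0.66 at 7 days.

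Known REST targets of neurons are genes for synaptic, channel and secretory proteins that are described as repressed through RE1 elements. Of 84 listed genes 63 were in the table. At an unadjusted p under 0.05, 8 of the 63 (12.7%) were higher at 7 days and 0 lower, beside 2.11% and 2.26% of all genes, and the same 8 to 0 split held for libraries without overlap, beside 4.04% and 3.24%, though the genes counted were not all the same. The difference was positive for 48 of the 63 (76.2%), beside 52.7% of all genes, and its median was 0.64, beside 0.04. The median was 0.59, 0.51 and 0.56 in the 3 batches. The mean over the 63 genes was 0.77, 1.10 and 0.75 in the 7-day libraries and 0.05, 0.33, 0.43 and 0.13 in the 3-day libraries, without overlap. 29 of the targets also belong to the synaptic, receptor or channel lists below (median 0.74), and the 34 that do not had a median of 0.61. The 148 synaptic, receptor and channel genes that are not listed as targets had a median of 0.26, with 6 higher and 0 lower at an unadjusted p under 0.05.

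The higher targets included *Cacna1a*, *Penk*, *Stmn2*, *Dner* and *Grin1*. *Stmn2*, a microtubule regulator of growth cones, was at 3.21, 1.47 and 1.56 at 7 days and 1.10, 1.37, 0.95 and 1.23 at 3 days (1.06 ± 0.49), and 7-day library 2 carried much of the difference: without it the difference was 0.52. *Penk*, the precursor of enkephalins, was at 0.94, 2.75 and 0.38 against -3.45, -0.30, 0.04 and -2.44 (3.01 ± 1.29), and the difference was 1.72 with sex in the fit. 4 of the 8, *Grin1* and *Penk* among them, belong to 140 genes (1.41% of the table) whose values correlate with the 2 sequencing components, whereas those of all other genes do not. Among the 59 targets outside that set, 4 were higher and 0 lower, with a median of 0.56. Over 17 alternatives of the fit, the list's median stayed between 0.43 and 0.72, with 4 to 10 genes higher and 0 to 2 lower, the 2 without 7-day library 13.

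The RE1 element has a left part, whose core reads TTCAGCACC, and a right part with the core GGACAGC. Both were searched on both strands in RefSeq promoters of GRCm38.p6, each the 250 bases before and 50 after a start site. A promoter was at hand for 40 of the 63 measured targets and for 7748 of all measured genes. The left core was in promoters of 5 targets (12.5%), beside 0.371% of all 32851 promoters and 0.465% of the measured genes, and the right core in those of 8 (20%), beside 6.56% and 9.11%. A match is a description of the letters and not evidence of binding. The windows around the left core are shown because they hold that core in promoters of listed genes. The right core was also in the promoters of *Unc13a* and *Scg2* but not in those of the other 3, and the whole element was not searched. *Dner* is the only one of the 5 among the 8 higher targets and was singled out for its sequence after its values were seen. The promoters are those of *Unc13a* (chr8:71671708-71672007), *Celsr3* (chr9:108825795-108826094), *Scg2* (chr1:79439977-79440276), *Syn1* (chrX:20920869-20921168) and *Dner*. Each window is written 5′ to 3′ on the strand that reads the core, which is in capitals.
Dner: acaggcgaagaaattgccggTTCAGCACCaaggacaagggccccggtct
Unc13a: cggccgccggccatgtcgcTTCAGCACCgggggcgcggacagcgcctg
Celsr3: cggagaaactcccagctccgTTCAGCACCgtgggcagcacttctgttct
Scg2: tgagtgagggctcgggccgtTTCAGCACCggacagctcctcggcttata
Syn1: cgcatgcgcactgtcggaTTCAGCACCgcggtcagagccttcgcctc

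The differences of the 5 genes with the left core had both signs. *Dner*, a Notch ligand of neurons, was at 2.87, 1.78 and 1.99 at 7 days and 1.71, 0.63, 0.91 and 0.14 at 3 days, a difference of 1.53 ± 0.73. *Unc13a*, which primes synaptic vesicles, differed by 1.77 ± 1.08 and *Celsr3*, a cadherin of axon tracts, by 0.74 ± 1.48. *Syn1*, synapsin, differed by -0.12 ± 0.80, and *Scg2*, a granin of secretory vesicles, by -0.64 ± 0.62. The whole *Dner* window, chr1:84696172-84696471 of GRCm38.p6 on the minus strand, is given with the left core in capitals at position -150 from the start site.
Dner promoter: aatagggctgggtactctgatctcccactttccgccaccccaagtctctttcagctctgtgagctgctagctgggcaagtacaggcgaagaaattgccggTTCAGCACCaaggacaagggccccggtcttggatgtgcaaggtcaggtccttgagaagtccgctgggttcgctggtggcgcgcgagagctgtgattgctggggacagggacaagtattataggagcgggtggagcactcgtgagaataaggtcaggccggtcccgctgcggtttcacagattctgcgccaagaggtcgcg

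**Figure D3:**
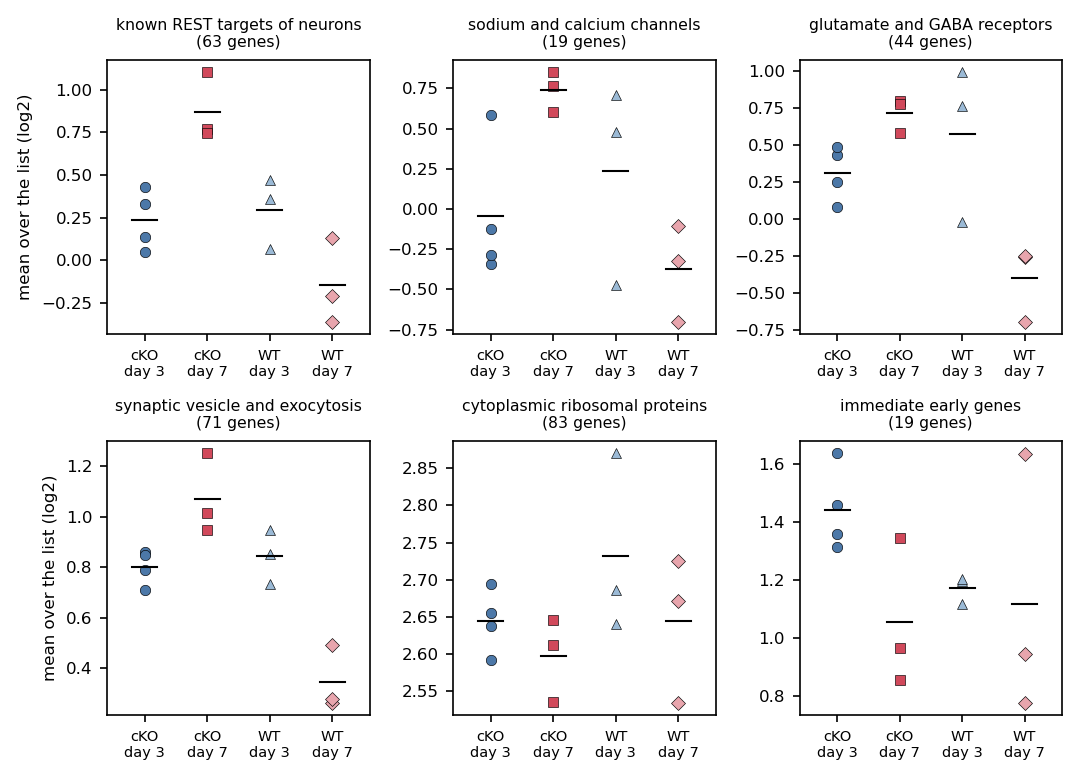
Mean log2 normalized count over the genes of 6 lists, with 1 point per library for REST cKO and WT at 3 and 7 days after SCI and bars at group means. For the known REST targets the REST cKO libraries at 7 days (0.75 to 1.10) lie above those at 3 days (0.05 to 0.43), while the WT libraries are at 0.06 to 0.47 at 3 days and -0.36 to 0.13 at 7 days. Axes differ between panels and do not start at 0.

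Of 19 sodium and calcium channel genes, 4 (21.1%, beside 2.11% of all genes) were higher at an unadjusted p under 0.05 and 0 lower (beside 2.26%). The list's median of 0.84 kept its sign in the 3 batches, but it was 0.37 with sex in the fit, where 2 genes were higher, and without 7-day library 2 only 1 was. The median was 0.33 over genes with a mean level of at least 0. Besides *Cacna1a* the higher genes were 3 auxiliary subunits of calcium channels. *Cacng4* had 1.80, 1.39 and 1.70 at 7 days and -0.88, -0.19, 0.35 and -1.18 at 3 days (2.18 ± 0.92, or 1.45 with sex in the fit), *Cacnb4* had 2.08, 1.99 and 0.99 against -0.47, -0.89, -0.03 and -0.87 (2.42 ± 1.17), and *Cacna2d1*, the binding partner of gabapentin, had 2.47, 3.33 and 1.16 against -0.15, 1.17, -0.24 and 0.56 (2.28 ± 0.96). The first pair did not overlap between the days, whereas for *Cacna2d1* 7-day library 26 lay just below 3-day library 15. Of 45 potassium channel genes 1 (2.22%), *Kcnma1*, the large-conductance calcium-activated channel, was higher (1.81 ± 0.75), 0 were lower, and the median of 0.06 ranged from -0.19 to 0.15 over the alternatives.

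Of 44 glutamate and GABA receptor genes 5 (11.4%, beside 2.11%) were higher and 0 lower (beside 2.26%). *Grm7*, a presynaptic metabotropic glutamate receptor, was at 2.15, 2.32 and 0.14 at 7 days and -3.23, -0.39, -3.10 and -0.48 at 3 days (3.58 ± 1.15), and *Gria1*, an AMPA receptor subunit, at 2.60, 3.72 and 0.40 against 1.44, -0.36, -0.31 and -1.31 (2.57 ± 1.20, or 1.23 with sex in the fit and 1.60 without 7-day library 13). Without 3-day library 15, 1 gene of the list was higher. The list's median of 0.38 was 0.16 with sex in the fit and became -0.02 when genes that correlate with a component were left out, a set to which all of the 5 but *Gria1* belong. Of 71 genes of synaptic vesicles and exocytosis 1 (1.41%, below the share of all genes) was higher and 0 lower, although 3 were higher without 3-day library 20 and 4 without 3-day library 27 or with sex in the fit. The median was 0.35, with all batches positive (0.11, 0.40 and 0.10). Their mean was 0.95 to 1.25 in the 7-day libraries and 0.71 to 0.86 in the 3-day libraries.

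Guidance and cytoskeletal genes had positive medians. Of 47 axon guidance genes 3 (6.38%, beside 2.11% of all genes) were higher and 0 lower (beside 2.26%), with a median of 0.32. Over the 22 of them with a mean level of at least 0 on the log2 scale, 0 were higher and the median was 0.15. The 3 were *Dpysl4* and *Unc5b* (above) and *Efnb2*, a transmembrane ephrin, which was at 0.70, 0.33 and -0.47 against -3.14, -1.41, -0.69 and -3.05 (2.48 ± 1.01). Of 83 genes for tubulins, microtubule proteins and motors 5 (6.02%, beside 2.11%) were higher and 0 lower, and 2 were higher without 7-day library 2. The median of 0.19 was 0.06 with sex in the fit, and it was -0.08 in batch 3. *Tubb5*, a beta-tubulin, had 2.94, 3.20 and 2.94 at 7 days and 2.14, 2.64, 2.42 and 2.51 at 3 days (0.62 ± 0.26), *Tuba4a* had 2.58, 1.86 and 2.12 against 0.46, 1.68, 1.70 and 1.41 (0.94 ± 0.43), and *Ina*, the intermediate filament internexin, had 1.86, 2.29 and 1.44 against 0.54, 0.79, -2.44 and 0.00 (2.31 ± 0.95). The difference of *Tubb5* was small but its libraries were tight. *Kif21a*, a kinesin, differed by 2.17 ± 0.87 with overlap, and by 1.23 without 3-day library 9. Of 56 genes of actin regulation, *Arpc4* and *Wasf2*, an activator of actin branching (1.06 ± 0.37), were higher and 0 were lower.

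Among genes of protein synthesis the ones past an unadjusted p of 0.05 were lower at 7 days. Of 83 cytoplasmic ribosomal protein genes 0 were higher and 5 (6.02%, beside 2.26% of all genes) lower at an unadjusted p under 0.05. Without overlap 10 were lower and 1 higher, beside 3.24% and 4.04% of all genes. The differences were small, with a median of -0.08. *Rpl37a* had 1.63, 1.94 and 1.65 at 7 days and 2.42, 2.50, 2.45 and 2.47 at 3 days (-0.75 ± 0.27), *Rpl35* had 3.49, 3.16 and 3.64 against 3.64, 3.99, 3.76 and 3.81 (-0.41 ± 0.16), and *Rps13* differed by -0.54 ± 0.24. The difference of *Rpl35* was -0.24 without 7-day library 13, and that of *Rps13* was -0.32 without 3-day library 27 and -0.26 with sex in the fit. Of 65 translation factor genes 0 were higher and 5 (7.69%, beside 2.26%) lower, with a median of -0.03 that ranged from -0.16 to 0.07 over the alternatives. *Eif5*, which helps select the start codon, had 1.67, 1.73 and 2.07 against 2.53, 3.21, 2.41 and 3.19 (-1.02 ± 0.42), and *Eif4a1*, the helicase that opens mRNA leaders, had 0.77, 1.86 and 2.40 against 2.61, 3.41, 2.31 and 2.44 (-1.06 ± 0.37), with 7-day library 26 inside the 3-day range. The difference of *Eif5* was -0.65 without 3-day library 27, and that of *Eif4a1* was -0.62 without 7-day library 2. *Eif3m* and *Eif2s3x* differed by -1.97 ± 0.75 and -1.33 ± 0.59, the latter by -0.87 with sex in the fit. The counts of lower members ranged over the 17 alternatives from 1 to 9 for ribosomal proteins and from 1 to 8 for translation factors.

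Protein quality control and degradation showed single genes in both directions. Of 49 genes for chaperones and the unfolded protein response 2 (4.08%, beside 2.11% of all genes) were higher and 2 (4.08%, beside 2.26%) lower. Over the 17 alternatives 1 to 4 were higher and 1 to 4 lower. *Dnaja1* (above) and *Asns*, asparagine synthetase, an amino acid stress gene, were higher, the latter with 1.19, 1.82 and 1.36 against -3.60, -0.54, -2.94 and -1.55 (3.63 ± 1.16). *Atf5* (-2.23 ± 0.88) and *Xbp1* (-0.72 ± 0.26), transcription factors of stress responses, were lower. The difference of *Atf5* was -1.07 without 7-day library 2. Of 59 lysosome and autophagy genes 0 were higher (beside 2.11% of all genes) and 3 (5.08%, beside 2.26%) lower: *Psap*, the saposin precursor, had 3.60, 3.67 and 3.62 against 3.83, 4.16, 3.91 and 3.88 (-0.34 ± 0.13), *Ctsz*, a cathepsin, differed by -0.73 ± 0.30, or -0.43 without 7-day library 2, and *Wipi1*, an autophagosome protein, by -1.64 ± 0.74, or -1.02 without 7-day library 13. Without 7-day library 2 or 3-day library 27, 1 gene of the list was lower, and without the latter 3 were higher. Of 45 proteasome genes 1 (2.22%, beside 2.26% of all genes) was lower, *Psmd8* (-1.42 ± 0.55, or -0.90 without 7-day library 2). Of 100 genes of oxidative phosphorylation 1 (1%, beside 2.26%) was lower, *Cox7a2l* (-0.58 ± 0.23). In either list 0 were higher, beside 2.11% of all genes, and neither share of lower genes exceeded that of all genes. These counts rested on single libraries: without 7-day library 26, 3 proteasome genes were lower, as were 6 genes of oxidative phosphorylation, with 1 higher. Of the latter list 3 were lower without 3-day library 27, 4 with sex in the fit, and 2 were higher without 3-day library 15. Of 34 genes of antioxidant defence *Gsta4* (2.92 ± 0.95) and *Hmox2* (2.88 ± 1.19, or 4.58 without 3-day library 27) were higher (5.88%, beside 2.11% of all genes) and *Prdx5* (-0.84 ± 0.35) lower (2.94%, beside 2.26%).

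Of 84 genes of interferon response and antigen presentation 1 (1.19%, beside 2.11% of all genes) was higher and 3 (3.57%, beside 2.26%) lower, with a median of -0.12. Both shares were near those of all genes. *Ifit1* was at 2.74, 1.60 and 2.67 at 7 days and 1.61, 0.69, 0.78 and 0.69 at 3 days (1.40 ± 0.62, or 0.90 without 3-day library 27), 3-day library 9 being far above the rest, whereas *Ifi203* (-2.60 ± 0.88, or -1.60 without 7-day library 2), *H2-M2* (-1.55 ± 0.66, or -0.67 without 7-day library 13) and *Rsad2* (-0.93 ± 0.43) were lower. These lists share cell types with the markers above: the microglial list had a median of -0.16, and *C1qc*, a complement gene of microglia, was at 3.16, 3.02 and 3.55 against 3.50, 3.64, 3.72 and 3.53 (-0.38 ± 0.18). The part of microglial RNA in these values was not tested.

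**Figure D4:**
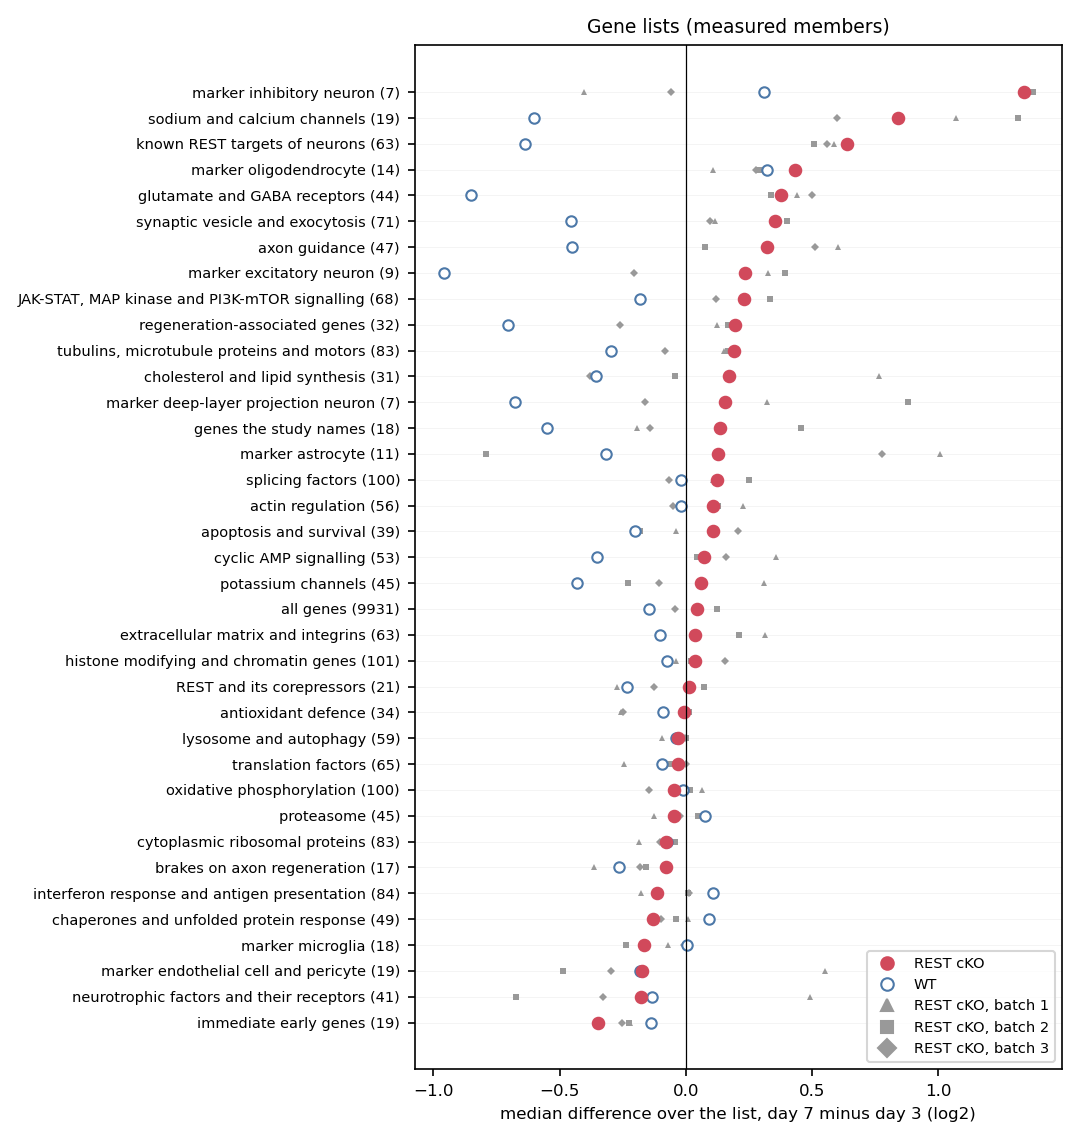
Median log2 difference between 7 and 3 days over each gene list, with the number of measured members in parentheses. Filled red points are REST cKO, open circles WT, and grey triangles, squares and diamonds the REST cKO medians within batch 1, 2 and 3. The known REST targets lie at 0.64 with batch values of 0.51 to 0.59, and all genes at 0.04.

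Regeneration-associated genes, induced in peripheral neurons that regrow, had a median difference of 0.20 over 32 measured of 41 listed, with 2 (6.25%, beside 2.11% of all genes) higher and 1 (3.12%, beside 2.26%) lower at an unadjusted p under 0.05, and 0 higher without 3-day library 9. The higher ones were *Stmn2* (above) and *Npy*, neuropeptide Y, with 1.00, 1.54 and 1.63 at 7 days and -3.41, -0.48, 0.17 and -1.61 at 3 days (2.96 ± 1.18), and the lower one was *Atf5*. The mean over the list was 1.28 to 1.56 at 7 days and 1.15 to 1.26 at 3 days, which did not overlap. The median was -0.26 in batch 3 and positive in the others. Immediate early genes, the first to respond to activity or injury, had a median of -0.35 over 19 measured of 25, with 0 higher and 0 lower (2 lower without 7-day library 13). Of the 19, 15 had a negative difference and 4 (21.1%) a positive one, beside 52.7% positive over all genes. The median ranged from -0.48 to -0.15 over the 17 alternatives. Batch medians were -0.22, -0.22 and -0.25.

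Of 17 genes that restrain axon regeneration 1 was lower and 1 higher (5.88% each, beside 2.26% and 2.11% of all genes). The higher one was *Tsc2*, an inhibitor of mTOR, at 2.00, 1.65 and 2.05 against -3.08, 0.75, 1.69 and -0.18 (2.26 ± 0.89), whose 3-day libraries spread widely, and without 3-day library 9 the difference was 1.31. Of 21 genes for REST and its corepressors 0 were higher and 0 lower, with a median of 0.01.

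The 18 genes that the study names for the regeneration program are described one by one for 17 of them, and because the study chose them on libraries that include these, they are not independent evidence of a direction. At an unadjusted p under 0.05, 0 of the 18 were higher and 1 (5.56%, beside 2.26% of all genes) lower. The lower one is among the genes not reported here. *Klf4*, a transcription factor that limits axon growth, did not reach that threshold. It was nevertheless lower without overlap, with 0.41, 0.81 and 1.26 against 2.39, 1.62, 2.08 and 1.77 (-1.09 ± 0.56). *Syt4*, a synaptotagmin, was at -0.23, 2.10 and 1.57 against 0.08, -0.66, -2.49 and -0.23 (2.12 ± 1.24), *Atf2* differed by 1.13 ± 0.64, or 0.44 without 7-day library 13 and 1.73 without 7-day library 26, and *Gap43*, a growth cone protein, by 1.02 ± 0.61, each with overlap. With sex in the fit the difference of *Gap43* was 0.22. Among the transcription factors of the program, *Jun* had 3.53, 2.15 and 3.05 against 3.24, 3.04, 3.77 and 3.39 (-0.40 ± 0.27), *Atf3* 0.54, 1.75 and 1.36 against 0.54, 0.67, 1.66 and 1.70 (0.23 ± 0.91), *Sox11* 2.55, 0.18 and 0.51 against 1.12, 0.75, 0.51 and 0.88 (0.12 ± 0.96), and *Smad1* and *Stat3* differed by -0.06 ± 1.02 and 0.00 ± 0.26. Another 8 differed by -0.40 (*Egr1*), -0.25 (*Rest*), -0.08 (*Rapgef4*), 0.15 (*Mapkapk2*), 0.39 (*Basp1*), 0.41 (*Pcna*), 0.70 (*Vav2*) and 0.76 (*Socs3*). 11 of the 18 (*Jun*, *Smad1*, *Sox11*, *Stat3*, *Atf3*, *Rest*, *Egr1*, *Pcna*, *Atf2*, *Mapkapk2* and *Klf4*) are among the 1.41% of genes whose values correlate with the sequencing components.

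Signalling lists had few members past an unadjusted p of 0.05. Of 68 genes of JAK-STAT, MAP kinase and PI3K-mTOR signalling 3 (4.41%, beside 2.11%) were higher and 1 lower, with a median of 0.23. The higher ones were *Tsc2*, *Rps6kb2*, an S6 kinase (2.52 ± 0.95), and *Map3k10*, a mixed-lineage kinase of the JNK pathway, which was at 2.09, 1.59 and 1.08 against 0.73, -1.21, -1.53 and -1.59 (2.58 ± 1.11, or 1.67 without 3-day library 27). Without any one of 7-day library 13 and 3-day libraries 20 and 27, 1 gene of the list was higher. Of 53 genes of cyclic AMP signalling 3 (5.66%, beside 2.11%) were higher and 0 lower (beside 2.26%), with a median of 0.07 that was -0.02 after quantile normalization. Without 7-day library 2 or 3-day library 27, 0 were higher, and 1 was without 3-day library 20 or with sex in the fit. The 3 were *Prkar2b*, a regulatory subunit of protein kinase A (2.75 ± 1.06), *Akap7*, its anchor (2.26 ± 0.89), and *Pde1b*, a phosphodiesterase (2.41 ± 1.03). All 3 were without overlap. Of 41 genes for neurotrophic factors and receptors *Kdr*, the main receptor of VEGF, was higher with 2.89, 2.93 and 2.10 against 1.46, 1.17, 1.30 and 1.42 (1.39 ± 0.53), and it is also an endothelial marker.

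Among the remaining lists, 3 of 63 genes of extracellular matrix and integrins (4.76%, beside 2.11% of all genes) were higher, *Timp4* (2.61 ± 1.03), *Col1a1* (2.69 ± 1.08, or 1.77 with sex in the fit) and *Lamc1* (2.46 ± 1.15), and 1 (1.59%, beside 2.26%), *Itgb3*, was lower (-2.62 ± 1.12). Of the list 0 genes were higher without 3-day library 9, 1 without 3-day library 27, 1 with sex in the fit and 0 among the 40 with a mean level of at least 0. The difference of *Lamc1* was 1.48 without 7-day library 13 and 1.11 with sex in the fit. Of 31 genes of cholesterol and lipid synthesis *Scd2*, a fatty acid desaturase, was higher (1.07 ± 0.47, or 0.57 with sex in the fit), and of 39 genes of apoptosis and survival *Xiap*, a caspase inhibitor, had 2.99, 2.74 and 2.68 against 2.02, 1.52, 1.32 and 0.57 (1.48 ± 0.48). Of 101 chromatin genes 0 were higher and 2 (1.98%, near the 2.26% of all genes) lower, *Prmt3* (-2.81 ± 1.27) and *Prmt7* (-2.33 ± 1.12, or -1.16 with sex in the fit and -1.49 without 7-day library 13), both arginine methyltransferases. Of 100 splicing factor genes *Hnrnpr* was higher (1.21 ± 0.51) and *Lsm4* lower (-1.49 ± 0.64), but 5 were higher without 7-day library 26 and 4 without 3-day library 27, and 3 were lower without 3-day library 15. Of the cell type markers, the deep-layer genes *Npnt* (3.04, 1.55 and 1.79 against -0.08, 0.47, 0.88 and -0.57) and *Sulf2* (2.62, 1.40 and 1.91 against 0.81, -0.41, -2.47 and -0.81) did not overlap. Of the inhibitory neuron markers *Vip* was lower (-2.46 ± 1.06), and the astrocyte genes *Slc4a4* (2.33 ± 1.01) and *Gja1* (1.05 ± 0.47) were higher with overlap.

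Whether the course from 3 to 7 days differed between genotypes was asked with an interaction term. It passed an adjusted p under 0.1 for 0 of 9931 genes (0%, limma, smallest adjusted p 0.261), and an unadjusted p under 0.05 for 787 genes, with 498 (5.01%) more positive in REST cKO than in WT and 289 (2.91%) more negative. That split depends on scaling: after quantile normalization it was 346 to 388, and the median interaction moved from 0.20 to -0.02. The WT libraries differed in ways other than genotype: all 3 at 7 days were labelled female and 2 of the 3 at 3 days male, and WT library 5 at 3 days had 29.5% of its values below -2, beside 6.44% to 16.98% in the other 5. Without that library the split was 520 to 233, and with sex as a term of the fit 472 to 363, again with 0 genes past an adjusted p of 0.1. In WT the same comparison had a median of -0.14 and 1 gene with an adjusted p under 0.1. For the known REST targets the medians were 0.64 in REST cKO and -0.64 in WT, and 11 of the 63 had a positive and 0 a negative interaction at an unadjusted p under 0.05. Of the 148 synaptic, receptor and channel genes that are not listed targets 16 had a positive and 1 a negative one.

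Named by the same rule among genes without overlap in REST cKO, the 5 with the smallest p of each sign included several that ran opposite ways. *Cacna1a* was at -1.09, -2.97 and -2.32 in WT at 7 days and 0.87, 1.48 and 1.15 at 3 days, lower without overlap, against the higher values in REST cKO (interaction 7.38 ± 1.57, limma, adjusted p = 0.261). *Grm7* was at -0.66, -3.12 and -2.70 against 2.23, -0.22 and 2.02 in WT (interaction 7.61 ± 1.72), and *Rassf9* at -0.89, -0.62 and -1.94 against 0.79, 0.62 and 0.49 (interaction 5.79 ± 1.47). WT at 3 days and REST cKO at 7 days thus had similar values of *Cacna1a*, 0.87 to 1.48 and 0.94 to 1.24. *Peg3*, an imprinted zinc finger gene, and *Zfp318* had interactions of 3.97 ± 0.96 and 5.52 ± 1.51, with overlap in WT.

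Among the negative ones, *Wiz* was at 0.64, 1.83 and 1.44 in WT at 7 days and 0.14, -2.59 and -1.62 at 3 days, higher without overlap, against lower values in REST cKO (interaction -5.87 ± 1.32). *Ireb2*, an iron-sensing RNA-binding protein, had -2.99, -2.57 and -0.81 at 7 days and 2.11, 0.45, 0.05 and 2.22 at 3 days in REST cKO and 0.58, 2.40 and 1.55 against -2.82, 0.42 and 0.09 in WT (interaction -5.59 ± 1.52). *Tbc1d2*, a Rab GTPase-activating protein, had -3.37, -2.03 and -2.57 against -0.20, 0.18, 0.34 and -0.22 in REST cKO and -0.06, 0.11 and 1.48 against -2.39, -2.39 and -1.68 in WT (interaction -5.58 ± 1.53). *Vwa8* differed by -5.59 ± 1.41. For *Ran*, WT had 2.73, 2.35 and 3.10 at 7 days and 2.96, 1.74 and 2.82 at 3 days, close to the REST cKO values at 3 days, and the interaction was -2.02 ± 0.55. Over all genes, 28 were higher in REST cKO and lower in WT without overlap in either, and 16 the reverse.

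**Figure D5:**
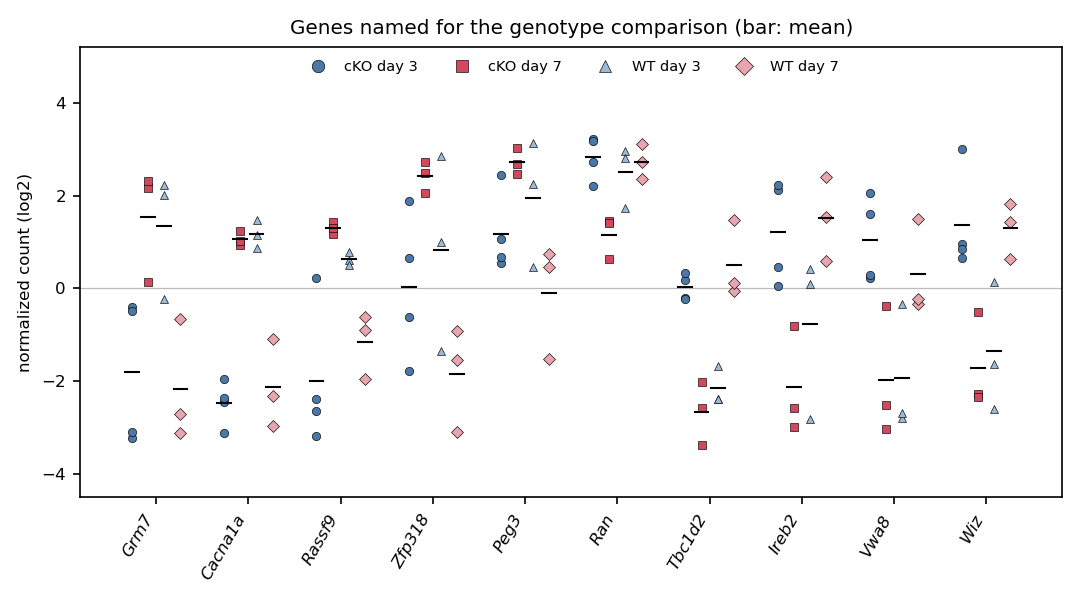
Log2 normalized counts of the 10 genes named for the genotype comparison, with 1 point per library of REST cKO (circles, 3 days, squares, 7 days) and WT (triangles, 3 days, diamonds, 7 days) and bars at the group means. *Cacna1a*, *Rassf9* and *Grm7* were higher at 7 days in REST cKO and lower in WT, and *Wiz*, *Ireb2* and *Tbc1d2* the reverse. No interaction passed an adjusted p of 0.1.

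The genes that differed without overlap were compared for features the selection did not use. Genes higher at 7 days spanned a median of 33.4 kb of the genome from first to last annotated base, those lower 24.3 kb, and all genes 26.8 kb. With the genes cut by span into 4 equal bins, from the shortest to the longest, the median difference was -0.01, 0.05, 0.03 and 0.11, and the share higher without overlap was 3.1%, 3.87%, 4.55% and 4.63%. In WT the medians of the same bins were -0.07, -0.11, -0.17 and -0.23. The bin of the longest genes was at 0.19, 0.17 and -0.01 in the 3 batches, beside -0.06, 0.05 and -0.05 for the shortest genes and 0.04, 0.12 and -0.04 for all genes.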

How the data were processed

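Neurons sorted from mouse cortex were profiled by 3′ mRNA sequencing. The authors aligned reads to mm10 with STAR, estimated abundance with Salmon, scaled counts by geometric means, removed batch effects with RUV, dropped genes without counts in most of the samples, and regressed out sequencing components, and they deposited log2 normalized counts for 25 libraries in 1 table. The base of the logarithm was taken from the study's axes, and read totals were not used here. A shift between days that follows a batch or component may have been reduced by that correction. For 140 genes the values still correlate with the components. The table also holds the authors' own fold changes and p-values, which were not used.

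Of 9955 rows, the 24 without a mouse symbol were left out. limma 3.58.1 (R 4.3.3) with a mean-variance trend was fitted to all 25 libraries, with the 8 groups and 2 components as terms, and p-values were adjusted by Benjamini-Hochberg over 9931 genes with a threshold of 0.1. The fitted difference is adjusted for the components, so it can depart from the difference of the group means. The script was tested on simulated data. The members and the 37 lists were chosen with earlier results of these data known. Named were the 10 leading genes each way (no overlap, same sign in 3 batches, absolute difference of at least 1, ordered by unadjusted p, predicted genes and pseudogenes passed over), up to 4 genes of each list with an unadjusted p under 0.05, the 18 genes of the study, 5 genes each way for the interaction, and sex-linked genes. Some genes that the rule names are not reported here. Alternatives changed the covariates, libraries, weights, filter, trend and normalization.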

Additional observations from a re-analysis of the deposited data

Results flagged for a closer look

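In the REST cKO group at 3 days, 1 of the 4 libraries lay far from the other 3 for 6 of 103 measures examined, nearly all of them named genes (5.83%), and chance alone marks about 5% of such groups. The measure is the gap from the far library to its nearest neighbour as a share of the group's range, held against Dixon's critical value for 95% confidence. Library 9 was the far one for *Socs3* (0.940), *Ifit1* (0.895) and *Map3k10* (0.835). Library 27 was the far one for *Prmt7* (0.874), *Wiz* (0.869) and *Rest* (0.831).

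For 9 of 102 named genes (8.82%, beside 44 of all 9931 genes, 0.443%) the libraries at 7 days lay wholly on one side of those at 3 days in REST cKO and wholly on the other side in WT. 6 of the 9 were named because they lead the comparison in REST cKO or the interaction, where genes without overlap in REST cKO were taken, so nothing is read from the larger share. The genotype difference between the 2 courses (log2, REST cKO minus WT) was 7.61 for *Grm7*, 7.38 for *Cacna1a*, 5.79 for *Rassf9*, 5.53 for *Map3k10*, 4.76 for *Akap7* and 4.68 for *Sulf2*. It was -5.87 for *Wiz*, -5.59 for *Ireb2* and -5.58 for *Tbc1d2*. None of these interactions had an adjusted p under 0.1 by limma, and the smallest adjusted p over all genes was 0.261, beside 787 genes at an unadjusted p under 0.05.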

How the results depend on the processing

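The count of genes past an adjusted p of 0.1 between 7 and 3 days was 0 under every alternative except that without 3-day library 9, so that leaving out libraries in turn gave 0 to 2 genes. The count at an unadjusted p under 0.05 (434) was 686 when only the 7 libraries were fitted without components, 329 to 557 with a library left out, and 309 to 599 under the rest. The interaction gave 0 genes under every alternative run, including a fit of the 13 libraries of the 4 groups without components that was chosen after seeing the data. It has no value where only REST cKO libraries were fitted. The difference in the share of low values (1.35 percentage points) was -0.126 with a bound of -3, and -0.279 to 3.68 with a library left out, negative only without 7-day library 2, and the cause was not tested. Of 113 named genes 10 changed sign under some alternative, among them 6 of the 18 study genes and 0 of the 20 leading genes, whose adjusted p ranged from 0.119 to 1.00. The leading genes were selected for no overlap and the same sign in 3 batches, which nearly fixes their sign. Nothing is therefore read from that 0. The replicate numbers pair no libraries across the days, but each batch held both, and with batch as a block 365 genes had an unadjusted p under 0.05 and 0 passed the threshold. Of 90 named genes with an unadjusted p under 0.05, 24 moved by over 1.5 times when some library was left out and 9 with sex in the fit, 0 of the leading genes among either. The selection of the leading genes favours such stability, so their 0 is not a test of it. All values rest on 3 and 4 libraries, whose depths the table does not give.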
